A study of Mus musculus with 20 samples.

Results

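The 10 genes described here encode parts of the machinery with which cells present peptides on major histocompatibility complex (MHC) molecules. They were chosen by name, with earlier results of these data known. They are 10 of the 19938 genes that Affymetrix MoGene 1.0 ST arrays measured in these mouse islets. A gene was read from the probe set carrying its symbol alone, and from the one highest on average over the arrays where there were several. Each of the 10 had exactly 1 such probe set and none shared a probe set with another gene. The study used 20 arrays to ask whether islets of either sex take on the gene expression of pregnancy. Islets that had stayed in the pancreas came from female mice that were non-pregnant (NP, n = 4) or at pregnancy day 12.5 (P12.5, n = 4). Grafts were islets of female or male donors, taken back from under the kidney capsule of female hosts that were NP (n = 3 for each donor sex) or P12.5 (n = 3 for each donor sex). All mice were of the C57bl6/J strain. Graft hosts were young adults made diabetic with streptozotocin, a beta cell toxin, before transplantation, a treatment not described for the donors of the pancreatic islet samples. The labels mark the islet arrays as data analysed before. Array batch, streptozotocin and transplantation therefore cannot be told apart in any comparison of grafts with islets. The labels name no animals, so p-values measure only the spread between these samples. Levels are log2 values, in which 1 unit is a doubling, and a gene was called where limma's adjusted p was under 0.05 and the fold change at least 1.5.

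MHC class II molecules are pairs of alpha and beta chains that show peptides from the endocytic pathway to CD4+ T cells, and they are made mainly by dendritic cells, macrophages and B cells. The invariant chain, encoded by Cd74, escorts them to the endosome, and CIITA is the coactivator that switches on both. MHC class I molecules sit on nearly all nucleated cells and show peptides from the cytosol to CD8+ T cells: proteasomes cut the peptides, the TAP transporter moves them into the endoplasmic reticulum, and beta-2-microglobulin completes the molecule. Interferon gamma is known to raise genes of both pathways, and class I overexpression on islet cells is a known feature of autoimmune diabetes.

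All arrays had nearly the same median (5.9 to 6), Pearson's r between replicates ran from 0.971 to 0.989 across probe sets, and the highest value was 13.4 on NP islet array 1 against 14.4 to 14.6 elsewhere. The lower quartile of all values was 4.8, and differences of genes near it are compressed. The mean of 11 islet endocrine markers per array was 11.5 to 12 in islets and 11.3 to 11.8 in grafts. The acinar markers lay at 8.48 to 10.8 in islets and 5.14 to 5.43 in grafts.

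The grafts carried far more of the class II transcripts than the islets did. H2-Aa, which encodes the alpha chain of the I-A molecule (probe set 10450154, chr17:34282744-34287823 of GRCm38.p6), read 8.4, 8.7, 8.7 and 8.2 in NP islets and 8.4, 8.3, 8.5 and 8.3 in P12.5 islets. In NP female grafts it read 10.8, 10.2 and 9.8, and in NP male grafts 11, 10.7 and 10.5. In P12.5 grafts it read 9.6, 10.3 and 10.7 with female donors and 10 to 10.3 with male donors. All 12 grafts lay above all 8 islet arrays. The log2 difference from islets of the same state was 1.77 ± 0.23 (SE) in NP female grafts (3.40-fold, adjusted p = 8.16e-05), 1.83 ± 0.23 in P12.5 female grafts, 2.23 ± 0.23 in NP male grafts (4.70-fold) and 1.76 ± 0.23 in P12.5 male grafts. The difference was called in all 4 comparisons.

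**Figure D1:**
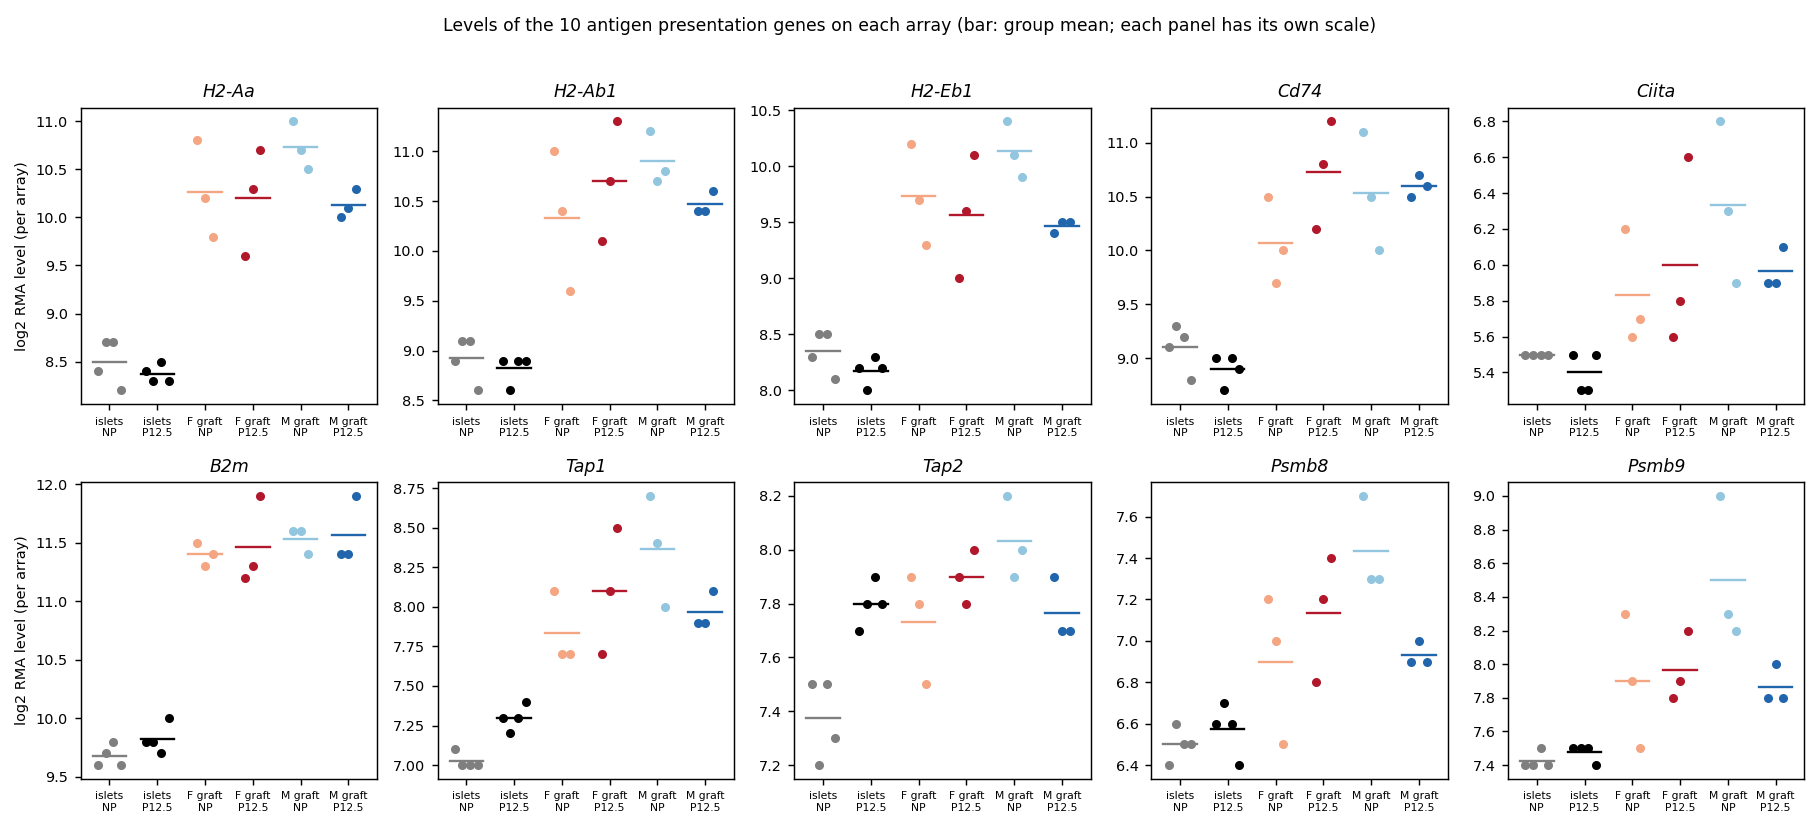
Level of each of the 10 genes on every array (log2 RMA value, vertical axis, each panel with its own scale) in the 6 groups (horizontal axis; F and M, female and male donors; 4 arrays per islet group, 3 per graft group), with a bar at the group mean. H2-Aa, H2-Ab1, H2-Eb1, Cd74, Ciita, B2m and Tap1 lie higher on every graft array than on every islet array, while Tap2 overlaps.

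H2-Ab1 encodes the I-A beta chain that pairs with the product of H2-Aa (probe set 10444291, chr17:34263227-34269418). It read 8.6 to 9.1 over the 8 islet arrays. It read 11, 10.4 and 9.6 in NP female grafts, up to 11.3 in P12.5 female grafts (10.7 ± 0.60, SD, n = 3), 11.2, 10.7 and 10.8 in NP male grafts, and 10.4, 10.4 and 10.6 in P12.5 male grafts. The lowest graft, at 9.6, lay above the highest islet array, and the female grafts of each state were spread more widely than the male ones. Grafts exceeded islets by 1.41 ± 0.27 (NP female), 1.88 ± 0.27 (P12.5 female), 1.98 ± 0.27 (NP male) and 1.64 ± 0.27 (P12.5 male), all called.

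H2-Eb1 encodes the beta chain of I-E (probe set 10444298, chr17:34305867-34316674). It read 8.0 to 8.5 in islets, 10.2, 9.7 and 9.3 in NP female grafts, 9.57 ± 0.55 (SD, n = 3) in P12.5 female grafts with the lowest at 9.0, 9.9 to 10.4 in NP male grafts, and 9.4, 9.5 and 9.5 in P12.5 male grafts. The lowest graft was again above the highest islet array. The differences from islets ran from 1.29 ± 0.22 in P12.5 male grafts to 1.78 ± 0.22 in NP male grafts, all 4 called. H2-Ea, the alpha chain that would pair with it and that is a pseudogene in this strain, had group means of 4.53 to 4.70, under the lower quartile, and was not called in any comparison.

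Cd74, which encodes the invariant chain (probe set 10456005, chr18:60803849-60812652), read 8.8 to 9.3 in NP islets and 8.7 to 9.0 in P12.5 islets. It read 10.5, 9.7 and 10 in NP female grafts and 11.1, 10.5 and 10 in NP male grafts. P12.5 grafts read 10.2, 10.8 and 11.2 with female donors and 10.5, 10.7 and 10.6 with male donors. No graft overlapped the islets, and the smallest difference from islets was in NP female grafts (0.97 ± 0.24, 1.95-fold, adjusted p = 0.00738). It was 1.43 ± 0.24 in NP male, 1.70 ± 0.24 in P12.5 male and 1.83 ± 0.24 in P12.5 female grafts, all called.

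Ciita, the coactivator gene (probe set 10433507, chr16:10480014-10531064), lay below the array medians in islets. It read 5.5 in all 4 NP islet arrays and 5.3 to 5.5 in P12.5 islets, against 6.2, 5.6 and 5.7 in NP female grafts, 5.6, 5.8 and 6.6 in P12.5 female grafts, 6.8, 6.3 and 5.9 in NP male grafts, and 5.9, 5.9 and 6.1 in P12.5 male grafts. Every graft array lay above every islet array, but in each of the 4 comparisons 20.6% to 31.4% of all genes did not overlap either. The difference was called in NP male grafts only (0.83 ± 0.21, adjusted p = 0.00832). Without NP male graft 1 it was 0.60 with adjusted p = 0.0549, and no longer called. In the other 3 graft groups it was 0.33 to 0.60 (adjusted p = 0.0799 to 0.248), and without P12.5 female graft 1 it was called in that group (0.80, adjusted p = 0.0474).

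Of the class I genes, B2m, which encodes beta-2-microglobulin (probe set 10475414, chr2:122147687-122153082), was higher on every graft array than on any islet array. It read 9.6, 9.7, 9.8 and 9.6 in NP islets and 9.8, 9.8, 9.7 and 10 in P12.5 islets. Grafts read 11.5, 11.3 and 11.4 (NP female), 11.2, 11.3 and 11.9 (P12.5 female), 11.6, 11.6 and 11.4 (NP male) and 11.4, 11.4 and 11.9 (P12.5 male). The lowest graft array, at 11.2, stood well above the highest islet array. The differences were 1.73 ± 0.15, 1.64 ± 0.15, 1.86 ± 0.15 and 1.74 ± 0.15 in that order, which is 3.12- to 3.63-fold, and all 4 were called (adjusted p = 3.92e-07 to 4.70e-06).

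Tap1 encodes a subunit of the peptide transporter (probe set 10444244, chr17:34187556-34197225). It read 7.1, 7.0, 7.0 and 7.0 in NP islets and 7.3, 7.2, 7.3 and 7.4 in P12.5 islets. In grafts it read 8.1, 7.7 and 7.7 (NP female), 7.7, 8.1 and 8.5 (P12.5 female), 8.7, 8.4 and 8.0 (NP male), and 7.9, 7.9 and 8.1 (P12.5 male). Differences from islets were 0.81 ± 0.17, 0.80 ± 0.17, 1.34 ± 0.17 and 0.67 ± 0.17 in that order, all called. The call in P12.5 female grafts was lost without P12.5 female graft 3 (0.60, adjusted p = 0.0607), and that in P12.5 male grafts without P12.5 male graft 3 (0.60, adjusted p = 0.0795).

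Tap2, the partner subunit (probe set 10444268, chr17:34204479-34216321) showed overlap between grafts and islets. It read 7.5, 7.2, 7.5 and 7.3 in NP islets but 7.7, 7.8, 7.9 and 7.8 in P12.5 islets. Grafts read 7.9, 7.8 and 7.5 (NP female), 7.9, 7.8 and 8.0 (P12.5 female), 8.2, 7.9 and 8.0 (NP male), and 7.9, 7.7 and 7.7 (P12.5 male). The NP male grafts exceeded NP islets by 0.66 ± 0.11 (1.58-fold, adjusted p = 0.000439). Without NP male graft 1 the difference was 0.58, under the fold minimum. In P12.5 grafts the difference was 0.10 ± 0.11 with female donors (95% interval -0.13 to 0.33) and -0.03 ± 0.11 with male donors (95% interval -0.27 to 0.20).

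Psmb8 and Psmb9 encode catalytic subunits of the immunoproteasome that replace those of the constitutive proteasome. Psmb8 (probe set 10444258, chr17:34198195-34201454) read 6.4 to 6.7 in islets, 7.2, 7.0 and 6.5 in NP female grafts, 6.8, 7.2 and 7.4 in P12.5 female grafts, 7.7, 7.3 and 7.3 in NP male grafts, and 6.9, 7.0 and 6.9 in P12.5 male grafts. Psmb9 (probe set 10450145, chr17:34182030-34187330) read 7.4 or 7.5 on every islet array, 8.3, 7.9 and 7.5 in NP female grafts, 7.8, 7.9 and 8.2 in P12.5 female grafts, 9.0, 8.3 and 8.2 in NP male grafts, and 7.8, 8.0 and 7.8 in P12.5 male grafts. Apart from NP female graft 3, every graft lay above every islet array for both genes. On all arrays the call was reached in NP male grafts alone, by 0.93 ± 0.16 for Psmb8 (adjusted p = 0.00041) and 1.08 ± 0.18 for Psmb9 (adjusted p = 0.000351). Both were also called in NP female grafts without NP female graft 3 (0.60 and 0.68, adjusted p = 0.00969 and 0.0132), and Psmb8 in P12.5 female grafts without P12.5 female graft 1 (0.72, adjusted p = 0.0125). In the other graft groups the differences on all arrays were 0.36 to 0.56 for Psmb8 and 0.39 to 0.49 for Psmb9. Psmb8 in P12.5 female grafts passed the p threshold (0.56 ± 0.16, adjusted p = 0.0389) at 1.47-fold, short of the fold minimum.

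Counted together, 6 of the 10 genes were called higher in NP female grafts than in NP islets, where 11% of the 35511 probe sets tested were called and 5.99% were called higher. In P12.5 female grafts it was 6 of 10 (4.05% of probe sets called, 2.83% higher), in NP male grafts all 10 (11.2% called, 5.94% higher), and in P12.5 male grafts 6 of 10 (7.26% called, 4.7% higher). The same 6 genes, H2-Aa, H2-Ab1, H2-Eb1, Cd74, B2m and Tap1, were called in all 4 comparisons. Graft and islet arrays did not overlap for 7, 9, 10 and 9 of the 10 genes in the order above. Over all genes this held for 31.4%, 20.6%, 30.1% and 27.1%. The median log2 difference of the 10 genes was 0.89, 1.10, 1.39 and 0.98 in the order above, beside a median of -0.08 to -0.07 over all genes. The 10 genes were chosen with earlier results of these data known, so these counts beside all probe sets are descriptions and no test. The 2 NP comparisons share the NP islet arrays, and the 2 P12.5 comparisons share the P12.5 islet arrays. That 10 were called in NP male grafts and 6 in NP female grafts is no test of the donor sexes; their direct comparison is given with the other contrasts between grafts.

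**Figure D2:**
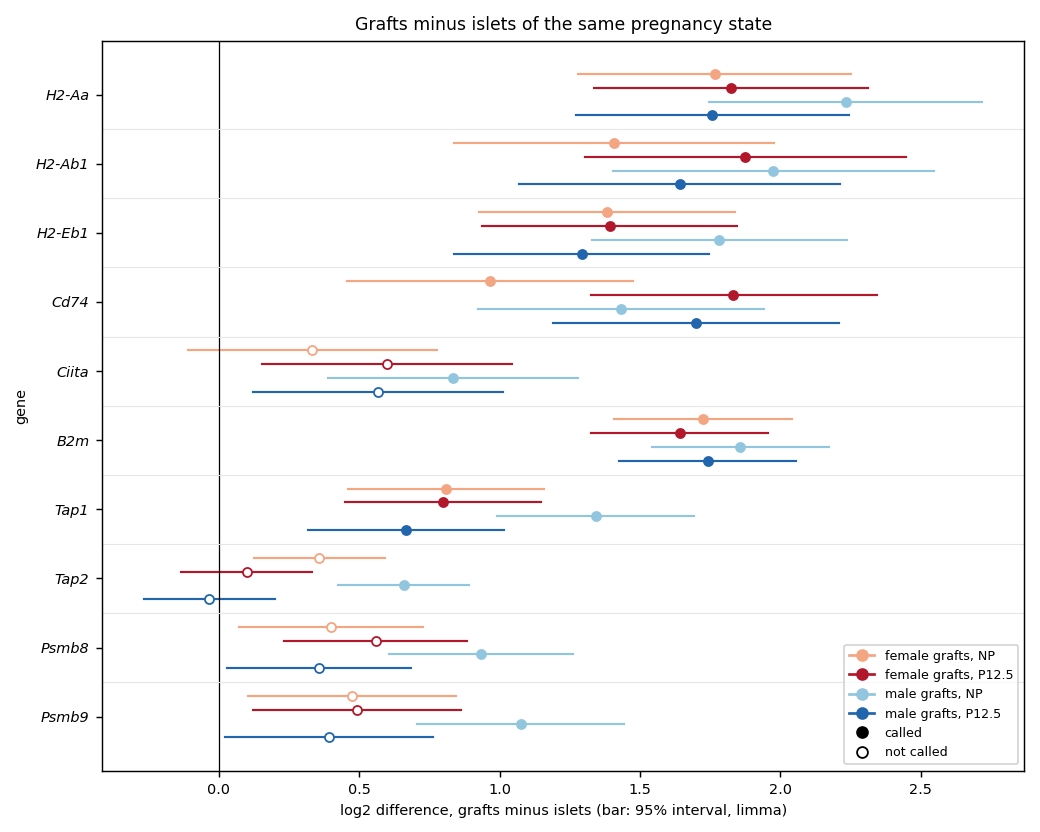
Log2 difference of grafts minus islets of the same pregnancy state (horizontal axis) for each gene (vertical axis), with 95% intervals from limma; filled points were called. H2-Aa, H2-Ab1, H2-Eb1, Cd74 and B2m lie between 0.97 and 2.23 in every graft group, and Tap2 of P12.5 grafts lies at -0.03 and 0.10.

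Genes around the 10 in the same pathways moved unevenly. Of 17 measured genes of the wider class II pathway, 6, 6, 9 and 4 were called higher than in islets in NP female, P12.5 female, NP male and P12.5 male grafts, and 0 were called lower. The largest differences were those of Ctss and Lgmn, which encode the proteases cathepsin S and legumain that trim the invariant chain. Ctss was higher by 1.74 ± 0.22, 1.88 ± 0.22, 2.14 ± 0.22 and 1.94 ± 0.22, and Lgmn by 2.08, 1.59, 1.78 and 1.73 (SE 0.19 each). Ctsl, the gene of the protease cathepsin L, was not called. Its group means were 9.6 and 9.525 in islets and 9.87 to 10.03 in grafts. H2-DMa, a chain of the peptide exchange factor H2-M, was higher by 1.03, 0.92, 1.43 and 0.72 (SE 0.16), and the costimulatory gene Cd86 by 1.43, 1.06, 1.73 and 0.96 (SE 0.20). Ifi30, a lysosomal thiol reductase, was called in NP female (0.89), P12.5 female (0.66) and NP male grafts (1.43). H2-Ob, a chain of the inhibitor of H2-M, was called in NP female (0.68 ± 0.15) and NP male grafts (1.54 ± 0.15), where H2-Oa, its partner chain (0.94 ± 0.18), H2-Eb2 (0.90) and the activation marker Cd83 (1.02) were called too. Cd83 was also called in P12.5 female grafts (0.59).

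Class I heavy chains are close copies of each other, and H2-K1 and H2-D1, the classical pair, lie here only on probe sets that carry several symbols. The probe set annotated to H2-D1, LOC547349 and H2-K1 (10444780) was called higher in all 4 graft groups, by 0.71, 0.83, 1.08 and 0.69 (SE 0.15), and another annotated to the same genes (10450075) in NP male grafts alone (0.73 ± 0.13). The one annotated to H2-Q6 and H2-Q8 (10444824) was higher by 1.44, 1.71, 2.14 and 1.64 (SE 0.25). Of 7 such class I probe sets, 2, 3, 4 and 2 were called higher in NP female, P12.5 female, NP male and P12.5 male grafts and 0 lower. The one for H2-T-ps and H2-T23 was called in NP male grafts (0.81) and the one for H2-T9, H2-T22 and H2-T10 in P12.5 female grafts (0.59). The other 2 were not called, with -0.24 to -0.13 for H2-Q1 and H2-Bl and -0.41 to 0.01 for H2-T3 and H2-T18. Signals of close copies cannot be separated on these probe sets. Of 15 heavy chain genes with a probe set of their own, 3, 2, 4 and 1 were called higher in NP female, P12.5 female, NP male and P12.5 male grafts. H2-Q4 was called in NP female (1.29), P12.5 female (0.68) and NP male grafts (1.73), and Mr1, which presents vitamin B metabolites, in NP female (1.23) and NP male grafts (1.16). H2-M2 was called in the same 2 groups (0.62 and 1.15), H2-Q5 in P12.5 female (0.64) and NP male grafts (0.98), and H2-T24 in P12.5 male grafts (0.71). The H2-T24 mean was 6.53 in P12.5 grafts of either donor sex and 5.825 in P12.5 islets, so its call does not separate the sexes.

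Further along the class I pathway little was called. Of 12 measured loading and processing genes, 1 was called, Psme1, a subunit of the PA28 proteasome activator, in NP male grafts (0.66 ± 0.13). Of 14 constitutive 20S proteasome genes 0 were called higher or lower in grafts by limma. The constitutive catalytic subunits replaced by the immunoproteasome had small differences: Psmb5 ran from -0.18 to 0.04 over the 4 graft groups (SE 0.13), Psmb6 from -0.15 to 0.25 (SE 0.18) and Psmb7 from -0.26 to 0.09 (SE 0.15). Psmb10, the remaining inducible subunit, ran from 0.08 to 0.52 (SE 0.15) and was not called.

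Of 19 measured interferon gamma signalling and target genes, 10, 8, 13 and 9 were called higher than in islets in NP female, P12.5 female, NP male and P12.5 male grafts, and 0 were called lower. Ifng, the gene of interferon gamma itself, was not called (0.00 to 0.37 over the 4 graft groups, group means 4.9 to 5.27), nor were Socs1, a feedback inhibitor (-0.12 to 0.26), and Ido1, a tryptophan-degrading enzyme (-0.20 to 0.01). The chemokine genes Cxcl9 and Cxcl10 were higher by 1.53 and 1.53 in NP female, 1.67 and 1.83 in P12.5 female, 2.87 and 2.59 in NP male, and 1.53 and 1.39 in P12.5 male grafts. The immunity-related GTPase gene Iigp1 was higher by 1.85, 1.90, 3.05 and 2.13 (SE 0.27), and the guanylate-binding protein gene Gbp3 by 1.58, 2.14, 2.18 and 2.21 (SE 0.29). Gbp4 (1.02 to 2.26), Gbp5 (0.98 to 1.81), Irgm1 (1.10 to 1.65) and Irf8 (0.91 to 1.51) were called in all 4 groups. Irf1, a transcription factor gene that acts on class I promoters, was called in NP male grafts alone (1.03 ± 0.15).

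Markers of other cell types differed between grafts and islets in the same comparisons, and these values stand beside the class I and II results. Ptprc, which encodes the pan-leukocyte marker CD45, was higher in grafts by 2.45, 2.35, 3.28 and 2.52 (SE 0.24). Of 13 leukocyte and macrophage markers, 13, 12, 13 and 12 were called higher in NP female, P12.5 female, NP male and P12.5 male grafts. Their mean level was 6.05 to 6.25 per array in islets and 7.62 to 8.83 in grafts. Of 10 dendritic cell markers 5, 4, 6 and 4 were called higher (mean 5.42 to 5.59 in islets, 5.71 to 6.58 in grafts). Of 11 T and NK cell markers 7, 4, 9 and 5 were called higher (mean 5.03 to 5.25 in islets, 5.49 to 7.01 in grafts). Of 8 B cell markers 0, 0, 4 and 0 were called higher. Kidney markers were called higher for 12, 4, 12 and 10 of 15, with a mean of 5.34 to 5.51 in islets and 5.91 to 8.65 in grafts. All 8 acinar markers were called lower in every graft group, and 5, 2, 5 and 1 of 9 endothelial markers were called lower. Of 11 islet endocrine markers 2, 0, 1 and 1 were called lower and 0 higher, with medians of 0, -0.22, -0.13 and -0.37. All 11 were negative in both P12.5 comparisons. In tissue extracts, fewer cells of a type and less RNA per cell cannot be told apart, and the part of these cell types in the 10 genes was not tested.

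**Figure D3:**
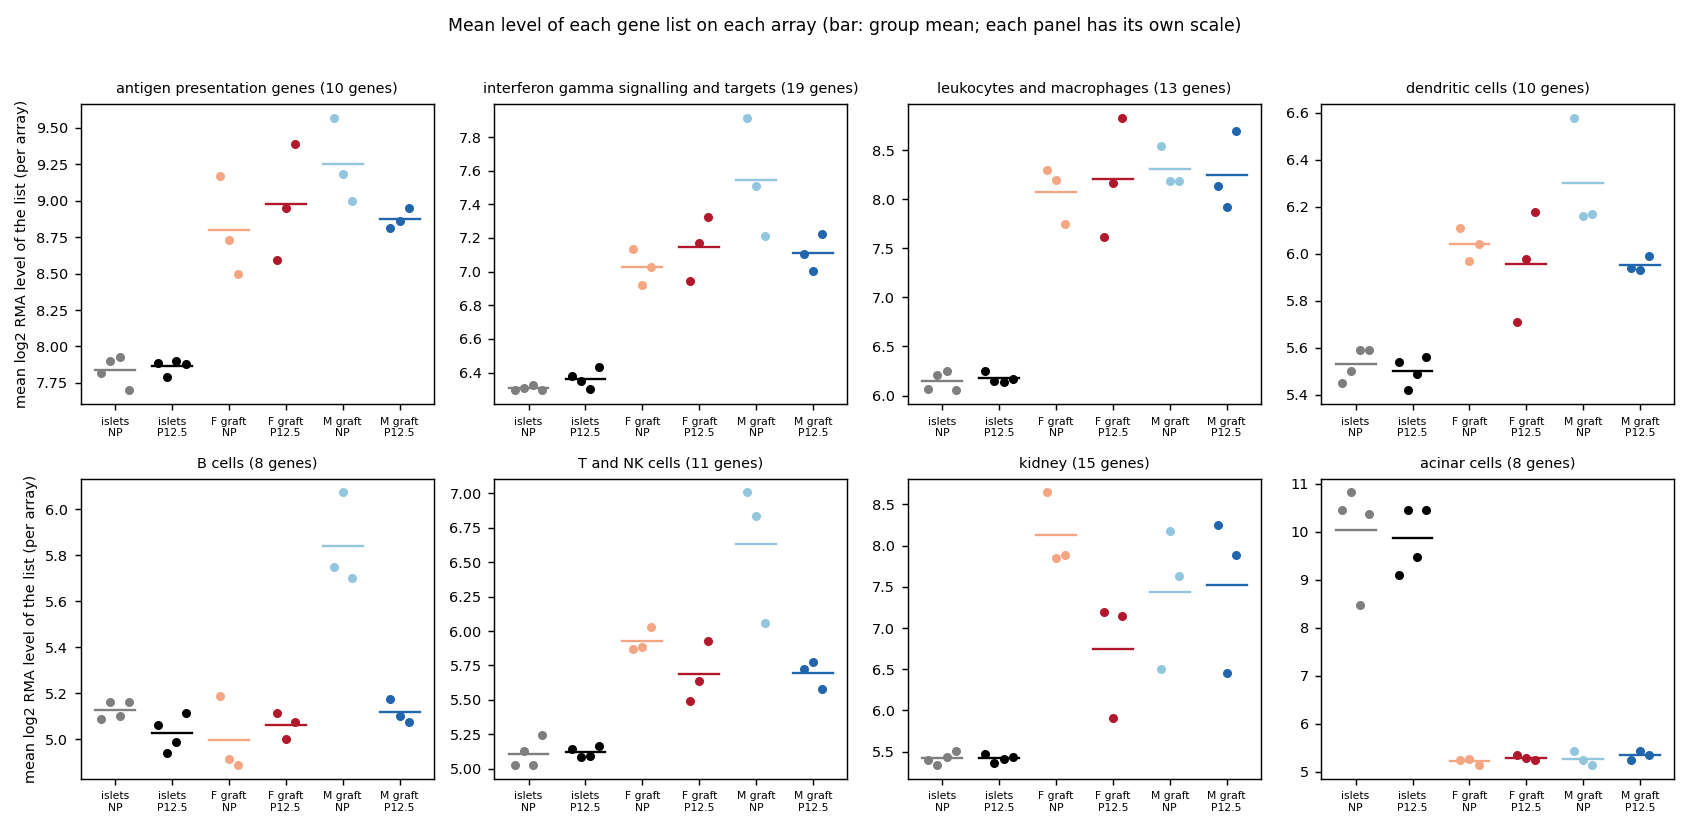
Mean log2 level of each gene list on every array (vertical axis, each panel with its own scale) in the 6 groups (horizontal axis; bar: group mean; F and M, female and male donors). The leukocyte list lies at 6.05 to 6.25 in islets and 7.62 to 8.83 in grafts, and B cell and T and NK cell lists are highest on NP male graft arrays.

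Class II genes and several class I genes are known to be controlled from short elements just upstream of their starts, so these stretches are shown beside the levels. RefSeq's promoter table (GRCm38.p6, 250 bases before to 50 after each gene's start) held windows for 6 of the 10 genes, and the 250 bases before the start are shown for 5 that cover both pathways, 5′ to 3′ on the gene's own strand. Capitals mark matches, on either strand, to the letters CCAAT (the core bound by the factor NF-Y in the class II Y box), GAAANNGAA (an interferon response core) and TTCNNNGAA (the STAT palindrome).
H2-Aa (chr17:34287824-34288073, minus strand): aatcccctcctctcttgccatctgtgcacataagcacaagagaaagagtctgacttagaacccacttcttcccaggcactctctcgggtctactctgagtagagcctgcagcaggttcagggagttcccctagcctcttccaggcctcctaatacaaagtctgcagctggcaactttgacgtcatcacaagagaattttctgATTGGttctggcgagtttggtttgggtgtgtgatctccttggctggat
H2-Eb1 (chr17:34305617-34305866, plus strand): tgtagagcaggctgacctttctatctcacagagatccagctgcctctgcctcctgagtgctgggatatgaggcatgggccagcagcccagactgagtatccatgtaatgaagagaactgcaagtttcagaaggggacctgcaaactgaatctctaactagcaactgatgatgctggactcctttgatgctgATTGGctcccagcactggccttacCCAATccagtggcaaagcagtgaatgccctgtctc
B2m (chr2:122147437-122147686, plus strand): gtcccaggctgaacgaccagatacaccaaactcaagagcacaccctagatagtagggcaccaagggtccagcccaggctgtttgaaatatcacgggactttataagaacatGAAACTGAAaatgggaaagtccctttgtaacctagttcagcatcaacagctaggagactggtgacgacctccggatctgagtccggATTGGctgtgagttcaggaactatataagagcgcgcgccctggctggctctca
Tap1 (chr17:34187306-34187555, plus strand): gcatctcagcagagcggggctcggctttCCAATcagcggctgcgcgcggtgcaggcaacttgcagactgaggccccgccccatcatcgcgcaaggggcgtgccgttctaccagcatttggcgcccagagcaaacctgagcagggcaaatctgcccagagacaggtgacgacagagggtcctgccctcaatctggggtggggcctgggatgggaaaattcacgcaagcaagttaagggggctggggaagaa
Psmb8 (chr17:34197945-34198194, plus strand): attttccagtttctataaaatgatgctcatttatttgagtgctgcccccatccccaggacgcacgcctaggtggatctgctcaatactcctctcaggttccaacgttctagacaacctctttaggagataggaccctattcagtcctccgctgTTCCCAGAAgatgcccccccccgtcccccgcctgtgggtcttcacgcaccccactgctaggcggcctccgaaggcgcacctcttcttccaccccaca

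H2-Aa had its CCAAT match, read as ATTGG, at -48 from the start, H2-Eb1 at -59 and -35, and B2m at -53. Tap1 and Psmb9 are read in opposite directions from starts so close that their 300-base windows shared 275 bases, and the CCAAT match in that stretch lay at -222 from Tap1 and -8 from Psmb9. Psmb8 held no CCAAT in its window and 1 STAT palindrome, TTCCCAGAA, at -97. B2m held 1 interferon response core, GAAACTGAA, at -139. Of all 32851 promoter windows in the table, 37.4% held CCAAT, 8.56% the interferon response core and 8.3% the STAT palindrome, so the CCAAT matches are common by their letters alone. GCAACAG, searched for as part of the X box, was in none of the 6 windows and in 5.48% of all. Only these exact letters were searched for, so an X box spelled otherwise would be missed, and its absence is not shown. These matches are descriptions of the letters and not measured binding sites.

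Pregnancy of the host changed none of the 10 genes past the threshold. In female grafts, P12.5 minus NP, 0 of 10 were called by limma, where 1.7% of probe sets were. At an unadjusted p under 0.05 the count was 0 too. For counts at this cut, here and below, no share over all probe sets is given, so they are descriptions only. The largest difference was that of Cd74 (0.67 ± 0.30, adjusted p = 0.236, 95% interval 0.00 to 1.33), with NP values of 9.7 to 10.5 and P12.5 values of 10.2 to 11.2. The 10 differences ran from -0.17 for H2-Eb1 to that value (median 0.17, all genes 0.03). The 2 groups overlapped for all 10 genes, while 20.1% of all genes did not overlap. The mean of the 15 kidney markers was 5.91 to 7.20 in P12.5 and 7.85 to 8.65 in NP female grafts, with 0 of 15 called by limma and 13 negative. With the kidney marker mean as a covariate the Cd74 difference was 0.49.

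In male grafts, 0 of 10 genes were called by limma, where 0.932% of probe sets were, and 3 passed an unadjusted p of 0.05. Differences leaned downwards, negative for 8 of 10 with a median of -0.42 beside 0 over all genes. H2-Eb1 was lower in P12.5 by 0.67 (95% interval -1.26 to -0.07, adjusted p = 0.211), with NP values of 9.9 to 10.4 and P12.5 values of 9.4 to 9.5. Psmb9 differed by -0.63 ± 0.23 (adjusted p = 0.176) and Psmb8 by -0.50 ± 0.20 (adjusted p = 0.201). For H2-Aa, H2-Ab1, H2-Eb1, Psmb8 and Psmb9 the 2 groups did not overlap, which was also so for 17.9% of all genes. B2m (0.03 ± 0.19) and Cd74 (0.07 ± 0.30) were the 2 with a positive difference.

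Several genes of other lists were called in this male graft comparison. H2-Ob fell by 1.2 (SE 0.18, adjusted p = 0.0149), from a mean of 7.07 to 5.87, and was 1 of 17 class II pathway genes called. Cd274, which encodes the inhibitory ligand PD-L1, was 1 of 19 interferon gamma genes called and fell by 0.73 (SE 0.15, adjusted p = 0.0449). The B cell markers Ms4a1, which encodes CD20, and Cd79a, of the B cell receptor, fell by 1.53 and 1.23, and the T cell gene Cd2 fell by 1.40. The mean of the T and NK cell markers was 7.01, 6.84 and 6.06 on NP male grafts against 5.73, 5.77 and 5.58 on P12.5 male grafts, and that of the B cell markers 5.70 to 6.08 against 5.08 to 5.18. Ptprc differed by -0.97 ± 0.31 (adjusted p = 0.136). The leukocyte and macrophage list, in contrast, overlapped between these groups (8.19 to 8.54 against 7.92 to 8.69). These marker values stand beside the uncalled differences of the 10 genes in male grafts, and their part in them was not tested.

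Taking both donor sexes, 0 of 10 genes were called (3.96% of probe sets were), 0 passed an unadjusted p of 0.05 and the median difference was -0.08. H2-Ob fell by 0.78 (SE 0.13) in this comparison, as did Mr1 by 0.78 (SE 0.12) and H2-Q4 by 0.73 (SE 0.17). Of the 11 T and NK cell markers, 6 were called lower in the same comparison, with all 11 negative and a median of -0.63. Of the 15 kidney markers 1 was called lower, with 12 negative, 3 positive and a median of -0.70. Of the 8 B cell markers 1 was called lower, with all 8 negative. All 9 endothelial markers were positive, with 0 called. The part of any of these in the falls was not tested. Mr1 was also called in female grafts, where it fell by 0.87 (SE 0.17). The difference between the sexes in the pregnancy response was negative for all 10 genes (median -0.57), but it was called for 0 of 10 by limma, as for 0% of probe sets, and 2 passed an unadjusted p of 0.05. Other lists leaned the same way without a call: all 14 constitutive proteasome genes (median -0.30), all 11 T and NK cell markers (-0.73) and all 8 B cell markers (-0.60) were negative. All 15 kidney markers were positive (median 1.17), and the part of any of these in the result was not tested. H2-Ab1 had the largest difference among the 10 genes (-0.80 ± 0.48, adjusted p = 0.955). With single arrays left out the H2-Ab1 difference ran from -1.13 to -0.43. It was -0.43 without NP female graft 3 and -0.50 without P12.5 female graft 3.

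**Figure D4:**
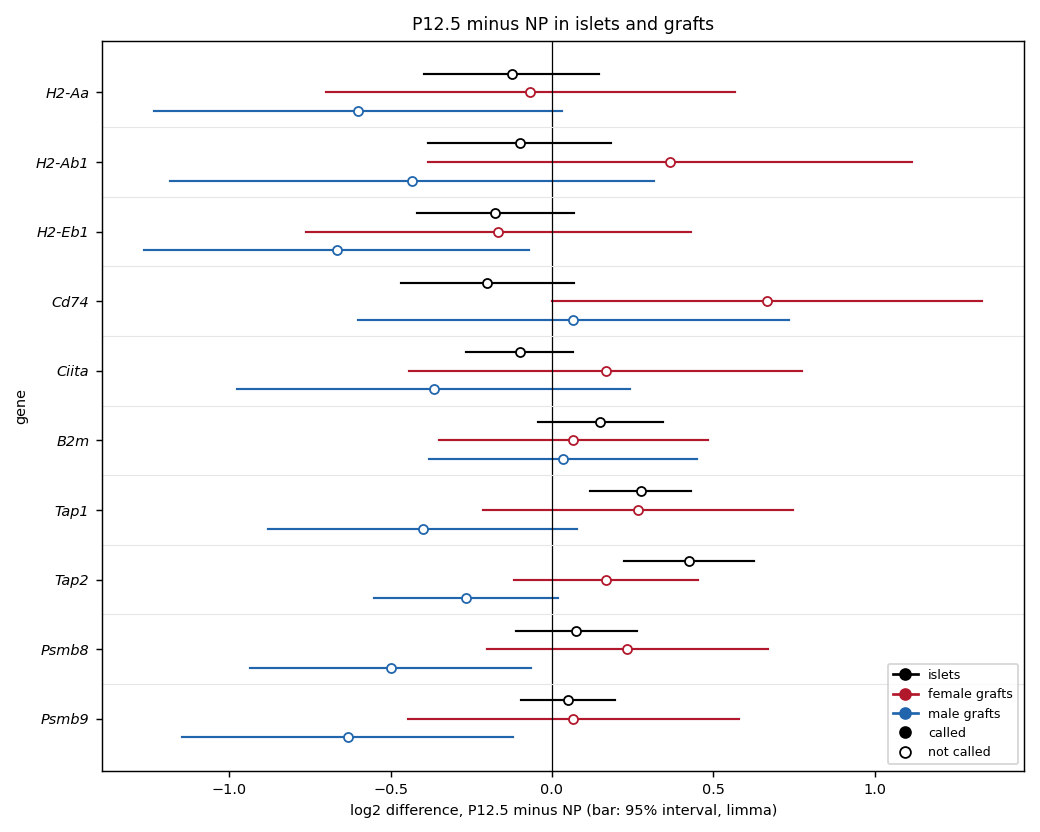
Log2 difference P12.5 minus NP (horizontal axis) for each gene (vertical axis) in islets, female grafts and male grafts, with 95% intervals from limma; all points are open because none was called. Male graft points lie below 0 for 8 of 10 genes, and the islet points of Tap1 and Tap2 lie above 0 at 0.28 and 0.43.

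In islets that stayed in the pancreas, 0 of 10 genes were called with pregnancy, where 0.724% of probe sets were, and 2 passed an unadjusted p of 0.05. These were the 2 transporter genes. Tap2 read 7.2 to 7.5 in NP and 7.7 to 7.9 in P12.5 islets, without overlap, a difference of 0.43 ± 0.09 (1.34-fold, adjusted p = 0.0627). Tap1 read 7.0 to 7.1 against 7.2 to 7.4, again without overlap, a difference of 0.28 ± 0.07 (1.21-fold, adjusted p = 0.115). Groups did not overlap for 7.02% of all genes. H2-Aa, H2-Ab1, H2-Eb1, Cd74 and Ciita had small negative differences from -0.20 to -0.10, and B2m, Psmb8 and Psmb9 small positive ones of 0.05 to 0.15. Of the 13 leukocyte and macrophage markers 1 was called in islets, C1qa, a complement gene of macrophages (0.95 ± 0.12).

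Whether the graft responded to pregnancy differently from the islets was tested as an interaction. With female donors 0 of 10 genes were called (0.0507% of probe sets) and 1, Cd74, passed an unadjusted p of 0.05 (0.87 ± 0.34, adjusted p = 0.271). With male donors 0 of 10 were called (0.605% of probe sets) and 4 passed an unadjusted p of 0.05. The nearest to a call was Tap2, whose difference of -0.69 ± 0.16 (adjusted p = 0.0514) combines 0.43 in islets with -0.27 in male grafts. It was called when array medians were subtracted (-0.82, adjusted p = 0.0196), when low probe sets were left out (adjusted p = 0.0443) and without P12.5 male graft 1 (-0.76, adjusted p = 0.0358).

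Donor sex made no called difference among the 10 genes. In NP grafts all 10 read higher on average with male than with female donors, by 0.13 for B2m to 0.60 for Psmb9 (median 0.48, all genes 0), yet 0 were called, as against 0.0141% of probe sets, and 4 passed an unadjusted p of 0.05. Genes of other lists leaned likewise: all 14 constitutive proteasome genes (median 0.20), all 19 interferon gamma genes (0.47), all 11 T and NK cell markers (0.73) and all 8 B cell markers (0.67) were positive, while all 15 kidney markers were negative (-0.73). Their part in the lean of the 10 genes was not tested. Psmb8 was the gene whose groups did not overlap (7.3 to 7.7 against 6.5 to 7.2), with a difference of 0.53 ± 0.20 (adjusted p = 0.928). Non-overlap held for 5.08% of all genes. Of the genes in all lists 1, Ms4a1, was called in this comparison (1.53 ± 0.19, adjusted p = 0.043), with a mean of 5.97 in male and 4.43 in female grafts. In P12.5 grafts the differences lay between -0.23 and 0.10, 0 of 10 genes were called (0.0113% of probe sets) and 0 passed an unadjusted p of 0.05.

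Within the class II genes, Cd74 and the chain genes did not keep step across graft arrays. The mean of H2-Aa, H2-Ab1 and H2-Eb1 was subtracted from Cd74 on each array, a measure chosen after the levels had been seen and given without a test. Its absolute value compares different probe sets and is not a ratio of transcripts, so only its change between arrays can be read. It was 0.57, 0.53, 0.43 and 0.50 in NP islets and 0.50, 0.40, 0.43 and 0.43 in P12.5 islets. In P12.5 grafts it was 0.63, 0.60 and 0.50 with female donors and 0.57, 0.70 and 0.47 with male donors. In NP grafts it was -0.17, -0.40 and 0.43 with female donors and 0.23, 0.00 and -0.40 with male donors. All 6 P12.5 grafts lay above all 6 NP grafts, but the nearest arrays, at 0.47 and 0.43, were closer than the rounding step of 0.1. Of single genes, 4.04% did not overlap between these 12 arrays. That share is no background for a difference between genes, and none was computed for such differences. The islets of both states lay within 0.40 to 0.57.

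**Figure D5:**
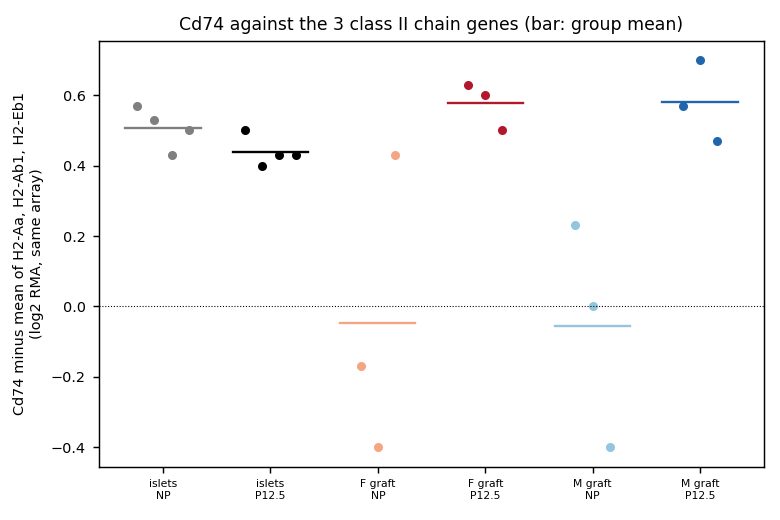
Level of Cd74 minus the mean level of H2-Aa, H2-Ab1 and H2-Eb1 on the same array (log2, vertical axis) in the 6 groups (horizontal axis; bar: group mean; F and M, female and male donors). Islets and P12.5 grafts lie between 0.40 and 0.70, and NP grafts spread from -0.40 to 0.43.

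The scatter among graft arrays was shared by most of the 10 genes. After the 4 graft group means were subtracted, Pearson's r over the 12 graft arrays, given as a description, was 0.99 between H2-Aa and H2-Eb1, 0.96 between H2-Aa and H2-Ab1, and 0.95 between H2-Ab1 and Psmb8. Cd74 ran closer to Tap1 (0.95) and Ciita (0.93) than to H2-Eb1 (0.84), H2-Aa (0.82) and H2-Ab1 (0.69). B2m was less close to Psmb8 (0.42), Psmb9 (0.35) and Tap2 (0.14). Tap2 was less close to Cd74 (0.39) and Tap1 (0.44) than to Psmb9 (0.78). No r over pairs of other genes is given as a background. Values in 1 array share its tissue and its scaling, and these are the same arrays for every pair. The genes whose residuals were most like those of H2-Ab1, among all 19938, were Dnase2a (0.97), Mmp2 (0.97), Aplnr (0.97), Cx3cr1 (0.97) and Ltbp2 (0.96). For Psmb8 they were Aif1 (0.97), Cx3cr1 (0.97), Cd52 (0.97), Cd40 (0.95) and Fam167b (0.95). For Cd74 they were Rdh8 (0.97), Aqp9 (0.97), Prima1 (0.96), Pde1b (0.96) and Tktl2 (0.95), and for B2m Stard9 (0.97), Dennd1c (0.97), Lima1 (0.97), Apobec3 (0.96) and Maf (0.95).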

How the data were processed

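Expression was measured on 20 Affymetrix MoGene 1.0 ST arrays in 6 groups taken from the sample titles. The authors processed the raw arrays by robust multichip analysis (background adjustment, quantile normalization and a summary per probe set, in the aroma.affymetrix package of R) and deposited log2 values for 35511 probe sets, each rounded to 0.1. The build behind the array annotation is not given in the sources used here. Of the probe sets, 21789 carried 1 symbol, 1621 several and 12101 none.

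Differences were tested with limma 3.58.1 in R 4.3.3 (lmFit and eBayes on log2 values, groups as the only terms, two-sided, Benjamini-Hochberg over all probe sets) and called at adjusted p under 0.05 with a fold of at least 1.5. Islets were fitted on their 8 arrays, grafts on their 12, and grafts against islets on all 20. There were 13 comparisons, each adjusted by itself. SE and intervals are limma's. The number of arrays limits precision: the median SE was 0.098 for islets, 0.151 for grafts of 1 donor sex and 0.131 for grafts against islets. The fit was tested on simulated data.

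The 10 genes and all gene lists were chosen with earlier results of these data known. Named are the 10 genes, H2-Ea, H2-K1, H2-D1, Psmb5, Psmb6, Psmb7, Psmb10 and Ptprc, the called genes of each pathway list (up to 6 of largest change), and the 5 genes most correlated with each of Cd74, H2-Ab1, B2m and Psmb8. Other list genes were named after their values were seen. Coordinates and promoters came from RefSeq tables of GRCm38.p6, promoters of H2-Ab1, Cd74, Ciita and Tap2 were not used here, and motifs were searched in Python 3.11.15. Alternatives were array medians subtracted, renewed quantile normalization, low probe sets left out, the mean of a gene's probe sets, no fold minimum, a replicate block, other sets of arrays in the fit, kidney markers as a covariate, and each array left out. Replicate numbers were not taken as pairs: same-numbered arrays of 2 groups had correlations of their deviations from -0.289 to 0.375. Between P12.5 female and P12.5 male grafts they were 0.042 to 0.375, beside a median of -0.095 for other numbers. Whether those arrays shared an origin was not tested.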

Additional observations from a re-analysis of the deposited data

Results flagged for a closer look

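In the islet groups, which have 4 arrays each and were the groups large enough for Dixon's test (20 gene and group pairs, of which chance flags about 1 in 20), 4 values stood apart from their group. H2-Ab1 read 8.6 on P12.5 islet array 2 against 8.9 on the other 3. Tap1 read 7.1 on NP islet array 1 against 7.0 on the other 3. Psmb9 read 7.5 on NP islet array 3 against 7.4 on the others, and 7.4 on P12.5 islet array 4 against 7.5 on the others. The last 3 gaps are 1 step of the rounding of the deposited values.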

How the results depend on the processing

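The counts of called genes kept their values of 6, 6, 10 and 6 for grafts against islets (NP female, P12.5 female, NP male, P12.5 male) under every alternative except 2 kinds. With no fold minimum the NP female and P12.5 female counts were 7. With single arrays left out they ranged from 6 to 8, 5 to 8, 8 to 10 and 5 to 6. Counts for pregnancy and donor sex stayed at 0 under every alternative run, also with arrays left out (0 to 0), apart from the interaction of male grafts with islets, where Tap2 gave 1 with array medians subtracted and 1 with low probe sets left out, and 0 to 1 with arrays left out. The replicate block changed no call: the counts were 6, 6, 10 and 6, and 0 elsewhere. The mean of a gene's probe sets could change no count, because each of the 10 genes had 1 probe set with its symbol alone. Directions that turned were all of uncalled differences, and the cause was not tested. With array medians subtracted Cd74 (-0.033) and B2m (-0.067) turned in male grafts, B2m (-0.017) in both sexes, and H2-Eb1 (-0.050) and Psmb9 (-0.042) in the female interaction. With renewed quantile normalization Tap2 turned in P12.5 male grafts against islets (0.0071), and H2-Eb1 (-0.015) and Tap1 (0.0050) in the female interaction. With kidney markers as a covariate Psmb9 turned in female grafts (-0.082).

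With 1 array left out, ranges that crossed 0 were as follows. P12.5 minus NP in female grafts: H2-Aa -0.32 to 0.23, H2-Eb1 -0.43 to 0.12, Ciita -0.13 to 0.37, B2m -0.15 to 0.20, Psmb9 -0.13 to 0.27. In male grafts: Cd74 -0.20 to 0.35, B2m -0.13 to 0.12. In both sexes: H2-Ab1 -0.22 to 0.13, Ciita -0.25 to 0.017, B2m -0.058 to 0.12, Tap1 -0.17 to 0.033. Male minus female in P12.5 grafts: H2-Aa -0.37 to 0.18, H2-Ab1 -0.53 to 0.067, H2-Eb1 -0.38 to 0.17, Cd74 -0.40 to 0.10, Ciita -0.23 to 0.27, B2m -0.067 to 0.32, Tap1 -0.33 to 0.067, Psmb9 -0.18 to 0.017. Sex difference of the response: B2m -0.20 to 0.18. Female interaction with islets: H2-Aa -0.19 to 0.36, H2-Eb1 -0.26 to 0.29, Ciita -0.033 to 0.47, B2m -0.30 to 0.050, Tap1 -0.21 to 0.19, Psmb8 -0.042 to 0.33, Psmb9 -0.18 to 0.22. Low signal limits Ciita, and 3 arrays per graft group limit every graft comparison.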
